A study of Mus musculus with 16 samples.

Results

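The cortical neuropeptide genes described here encode peptide precursors and were followed in cortical RNAseq of mouse pups after early-life pain. They were 10 genes, Sst, Npy, Vip, Cck, Crh, Cort, Penk, Pdyn, Adcyap1 and Nts, chosen for this role and found by their symbol among the 36930 entries of the table of normalized reads. Each of the 10 had 1 entry, had reads in all 16 pups and passed the filter on low values, as did 21183 entries in all.

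The study compared 8 Avil-ChR2 and 8 ChR2-flfl pups, all C57BL6, whose cortices were taken on day 7 after birth (P7). In both genotypes a floxed STOP cassette stands before the gene of the light-gated channel ChR2 in the Rosa26 locus, and in Avil-ChR2 pups Cre recombinase driven by the promoter of advillin (Avil), which is mainly active in nociceptive sensory neurons, removes it. ChR2-flfl pups were Cre-negative litter mates without ChR2. Every day from P1 to P5, both genotypes spent 1 h under blue light, so that the light itself was shared. The genotypes differed in whether it could drive sensory neurons and in carrying the Cre transgene. All pups received the light, so that an effect of early-life pain and one of the transgene cannot be told apart here. Avil lay between 0.825 and 1.46 CPM in ChR2-flfl and between 37.3 and 46.4 CPM in Avil-ChR2 pups, which separated the genotypes as labelled. CPM, the deposited unit, are read counts relative to the library size with the authors' TMM scaling. The reads per pup ranged from 30549126 to 48711134.

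Neuropeptides are cut from longer precursor proteins, packed into dense-core vesicles and released beside the fast transmitters GABA and glutamate, and they act mostly on G protein-coupled receptors. In the cortex Sst, Npy, Vip, Cort and Crh are known as genes of subsets of GABAergic interneurons, whereas Cck and Adcyap1 are also made by excitatory neurons. Penk and Pdyn encode the precursors of enkephalins and dynorphins and are most abundant in the striatum, which lies under the cortex. Nts encodes neurotensin. In RNA of whole tissue, fewer cells of a type and less RNA per cell cannot be told apart.

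Sst and Cort encode related peptides, somatostatin and cortistatin, and the DNA behind them is shown because these genes followed each other most closely across the pups. The stretches are the last 14 codons of Sst before its stop codon (chr16:23889732-23889773, minus strand, GRCm38) and the 14 codons of Cort that align with them (chr4:149125270-149125311, minus strand), with 1 codon left before the stop codon of Cort. Both lie in coding exons of the GENCODE annotation and are written 5′ to 3′, with bases common to both in capitals.
Sst: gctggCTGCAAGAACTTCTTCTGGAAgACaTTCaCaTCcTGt
Cort: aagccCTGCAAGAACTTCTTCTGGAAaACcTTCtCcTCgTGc
The stretches shared 31 of 42 bases (73.8%) and 7 of 14 codons, and 6 of the 11 differing bases were at the last base of a codon. The longest run of identical bases was 21, which is shorter than the 50 bases required of a read. Only these 42 bases of each gene were compared, and whether reads of 1 gene were assigned to the other was not tested.

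The precursors of the opioid peptides repeat their core. In the coding sequence of Penk, codons for the enkephalin core (any codon starting with TA, then GG, GG and TT) occurred 7 times in frame within 268 codons. Pdyn had 3 such copies within 248 codons, and the other 8 genes had none.

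RefSeq promoters on GRCm38.p6 were found for 8 of the 10 genes, and those of 4 genes that moved together or in opposite directions across the pups are shown. Each is the 120 bases before the RefSeq start on the strand of the gene. Capitals mark TGACG or its reverse complement CGTCA, the short site of the cAMP response element, and in Sst both overlap in the full palindrome TGACGTCA.
Sst, chr16:23890845-23890964, minus strand: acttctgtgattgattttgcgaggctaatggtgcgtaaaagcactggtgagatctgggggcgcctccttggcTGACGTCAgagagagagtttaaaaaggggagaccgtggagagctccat
Cort, chr4:149126764-149126883, minus strand: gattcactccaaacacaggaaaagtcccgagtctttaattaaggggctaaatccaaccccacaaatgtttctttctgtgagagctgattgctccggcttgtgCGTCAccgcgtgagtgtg
Npy, chr6:49822590-49822709, plus strand: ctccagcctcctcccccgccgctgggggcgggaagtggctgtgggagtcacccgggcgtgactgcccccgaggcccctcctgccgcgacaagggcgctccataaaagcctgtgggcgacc
Vip, chr10:5639098-5639217, plus strand: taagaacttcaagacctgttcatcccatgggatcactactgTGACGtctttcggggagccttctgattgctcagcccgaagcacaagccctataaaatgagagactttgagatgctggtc
The full site started 48 bases before the start of Sst and was found in no other member. Among 32851 promoters, 1.55% held it within the 250 bases before the start. The short site stood in 6 of the 8 genes (Sst, Vip, Cck, Cort, Adcyap1 and Nts) against 17.8% of all promoters, and it was not in the windows of Npy and Pdyn. A match of letters is a description and was not tested as a binding site.

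Per length of transcript, the levels of the 10 genes spanned 92.3-fold. CPM were divided by the length of the longest GENCODE transcript in kb, and values are means over 16 pups. The entries span whole genes with their introns, from 1264 bp for Sst to 13390 bp for Pdyn. Whether reads in introns were counted is not stated, and such reads would raise the level per kb of long genes. Cck (65.2 CPM per kb) and Sst (62.9) were highest, and Cck was above Sst in 11 of 16 pups, so that their order was not stable. Npy followed with 45.6 CPM per kb and was below Sst in 16 of 16 pups. Adcyap1 had 8.60 CPM per kb, Vip 5.52 and Pdyn 5.52, and Vip was above Pdyn in 8 of 16 pups. Penk (3.44), Cort (2.35) and Crh (1.83) came next, and Cort was above Crh in 12 of 16 pups. Nts was lowest with 0.707 CPM per kb and was below Crh in 15 of 16 pups. The length chosen mattered for Pdyn, which had 20.3 CPM per kb with the median length of its 3 transcripts and then stood before Adcyap1 (14.5). It also mattered for Vip, which had 9.13 CPM per kb with its longest protein-coding transcript and then stood before Adcyap1 (8.60).

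**Figure D1:**
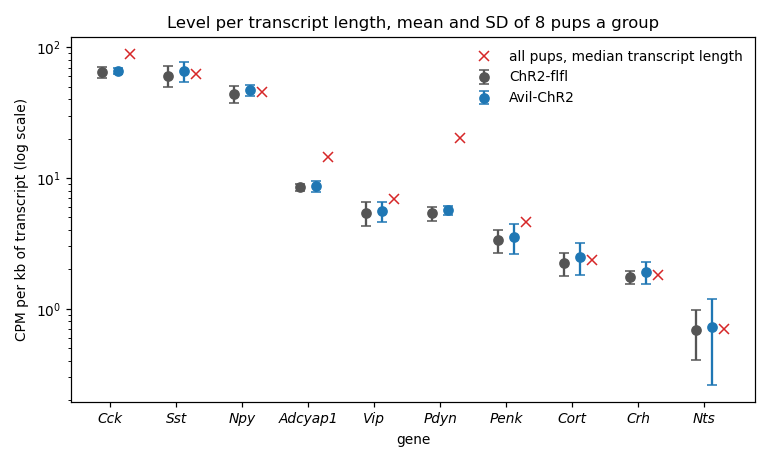
Level of each gene per kb of its longest transcript, on a log scale, as mean and SD of 8 pups per genotype, with crosses for the mean of all pups with the median transcript length. Cck, Sst and Npy lie above 40 CPM per kb and Nts below 1, and the genotypes lie side by side for every gene.

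The first question was whether the level of these genes differed between the genotypes. The difference between genotypes passed the test at an adjusted p under 0.05 for 0 of 10 genes, and for 2 of all 21183 genes (0.00944%). At an unadjusted p under 0.05 it was 0 of 10 genes, against 1145 of all genes (5.41%). The mean log2 value was higher in Avil-ChR2 pups for 9 genes and lower for 1, with a median difference of 0.077 on the log2 scale against 0.0020 for all genes, of which 10885 were higher and 10298 lower. The adjusted p of the 10 genes lay between 0.945 and 0.994 (limma).

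Sst (gene ID 20604, chr16:23889581-23890844, minus strand), the precursor gene of somatostatin, had 43.5 ± 7.99 CPM (SD, n = 8) in ChR2-flfl and 47.2 ± 8.03 CPM in Avil-ChR2 cortices. The lowest, median and highest ChR2-flfl pups had 27.4, 46.2 and 54.1 CPM, and those of Avil-ChR2 had 35.3, 46.0 and 59.7 CPM. The groups overlapped, with nearly equal medians. The log2 difference was 0.12 ± 0.12 (SE) with a 95% interval from -0.12 to 0.37, or from -8.07% to 29.1%. Cort (gene ID 12854, chr4:149125191-149126741, minus strand) had 1.51 ± 0.303 and 1.68 ± 0.460 CPM and rested on 45 to 112 reads per pup. Its lowest, median and highest values were 1.02, 1.53 and 1.93 CPM in ChR2-flfl and 1.13, 1.54 and 2.34 CPM in Avil-ChR2 pups. Its log2 difference of 0.14 ± 0.16 was the largest of the 10 and was smaller than the spread between pups.

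Npy (gene ID 109648, chr6:49822729-49829507, plus strand), which encodes neuropeptide Y, had 25.0 ± 3.65 CPM in ChR2-flfl and 26.7 ± 2.61 CPM in Avil-ChR2 pups. Its values ran from 18.1 over a median of 25.2 to 30.6 CPM in ChR2-flfl and from 23.2 over 26.5 to 30.4 CPM in Avil-ChR2 pups. It had the smallest p of the 10 genes, 0.218 unadjusted and 0.945 adjusted (limma), with 6 of 8 Avil-ChR2 values above the mean of ChR2-flfl. An exact permutation test with 12870 splits gave a two-sided p of 0.297. The log2 difference was 0.10 with an interval from -0.067 to 0.28.

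Vip (gene ID 22353, chr10:5639193-5647617, plus strand), the gene of vasoactive intestinal peptide, ran from 9.17 over 13.9 to 19.1 CPM in ChR2-flfl and from 10.5 over 14.2 to 17.4 CPM in Avil-ChR2 pups. The Avil-ChR2 values all lay within the range of the ChR2-flfl pups. The log2 difference was 0.057 ± 0.12, with 4 of 8 Avil-ChR2 values above the mean of ChR2-flfl. Crh (gene ID 12918, chr3:19693401-19695396, minus strand), which encodes corticotropin-releasing hormone, ran from 1.77 over 2.41 to 2.54 CPM in ChR2-flfl and from 2.01 over 2.31 to 3.32 CPM in Avil-ChR2 pups. The highest values belonged to Avil-ChR2 pups, but their median was the lower. The log2 difference was 0.11 ± 0.11 on 70 to 162 reads per pup.

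Cck (gene ID 12424, chr9:121489824-121495694, minus strand), the gene of cholecystokinin, gave the narrowest interval. It had 51.4 ± 4.87 CPM in ChR2-flfl and 52.9 ± 2.82 CPM in Avil-ChR2 pups, and its log2 difference of 0.045 had an interval from -0.059 to 0.15, or from -3.99% to 10.9%. The values ran from 44.5 over 50.7 to 61.5 CPM and from 47.3 over 53.3 to 56.0 CPM. Adcyap1 (gene ID 11516, chr17:93198904-93206541, plus strand), which encodes the peptide PACAP, was similarly tight, with 28.8 ± 1.62 and 29.5 ± 2.92 CPM and a log2 difference of 0.029 with an interval from -0.084 to 0.14. Its values ran from 25.3 over 29.4 to 30.3 CPM in ChR2-flfl and from 25.7 over 29.5 to 34.1 CPM in Avil-ChR2 pups.

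The opioid precursor Penk (gene ID 18619, chr4:4133530-4138965, minus strand) ran from 3.92 over 4.77 to 7.14 CPM in ChR2-flfl and from 3.66 over 5.03 to 8.01 CPM in Avil-ChR2 pups. In each genotype 1 pup stood well above the rest. The log2 difference was 0.073 ± 0.14 and changed its sign to -0.023 without Avil-ChR2 replicate 4, the highest pup. Pdyn (gene ID 18610, chr2:129686549-129699938, minus strand) ran from 9.67 over 13.1 to 14.7 CPM in ChR2-flfl and from 11.2 over 13.7 to 14.7 CPM in Avil-ChR2 pups, with a log2 difference of 0.081 ± 0.073.

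Nts (gene ID 67405, chr10:102481756-102490418, minus strand) varied most of all, 6.89-fold between the lowest and the highest pup, on 14 to 97 reads. It ran from 0.415 over 0.828 to 1.26 CPM in ChR2-flfl and from 0.288 over 0.657 to 1.99 CPM in Avil-ChR2 pups. Its log2 difference of -0.061 had an interval from -0.79 to 0.67 or from -42.1% to 58.6%, the widest of the 10. The sign of this difference was positive with log2(value + 1) (0.0044) or array weights (0.014).

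**Figure D2:**
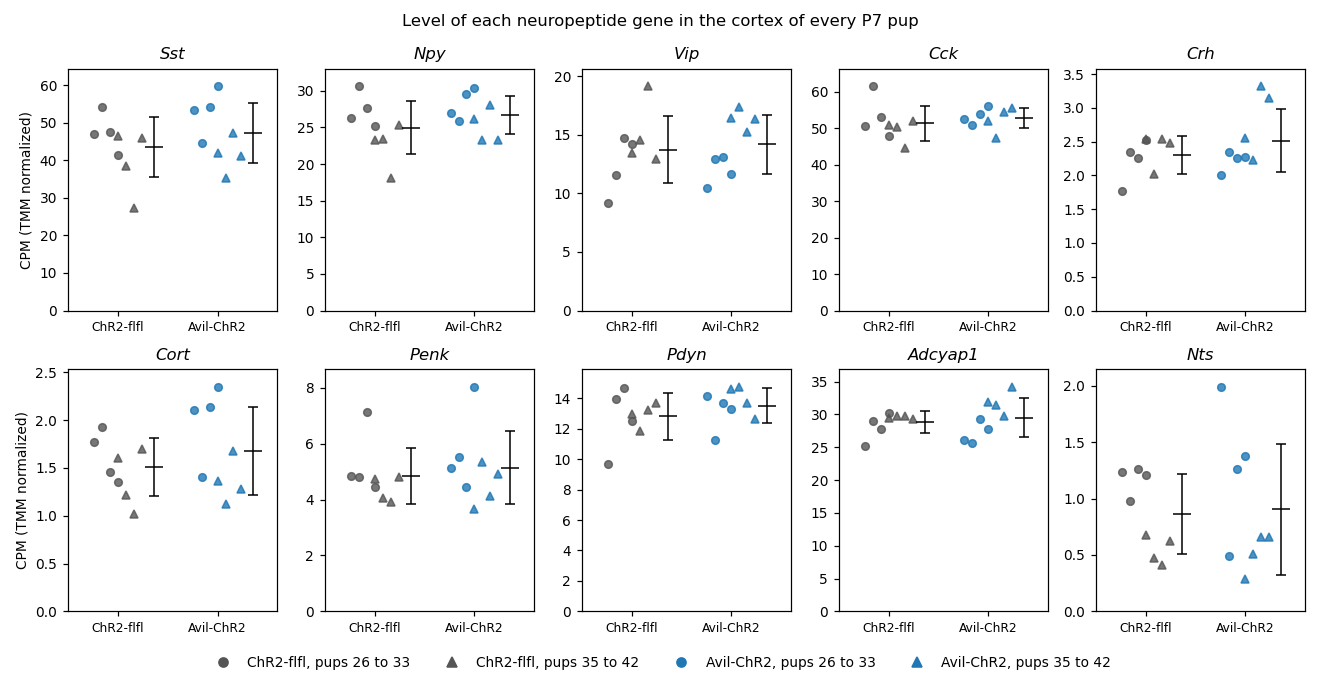
CPM of each gene in every pup by genotype, on linear axes from 0, with circles for pups 26 to 33, triangles for pups 35 to 42 and bars for the mean and SD of 8 pups. The genotypes overlap in all 10 genes, whereas in Nts, Sst and Vip the circles and triangles lie mostly apart, with Nts at a mean of 1.23 CPM in pups 26 to 33 and 0.538 CPM in pups 35 to 42.

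Within the runs of pup numbers, 4 pups per genotype each, 0 of 10 genes had an unadjusted p under 0.05 for genotype, both in pups 26 to 33 (3.17% of all genes) and in pups 35 to 42 (5.47%). Vip and Adcyap1 were lower in Avil-ChR2 pups of the first run, with log2 differences of -0.026 and -0.045, and higher in those of the second run, with 0.14 and 0.10. Cort had 0.28 in the first and -0.011 in the second run.

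No difference by sex was detected. With 15 pups and genotype in the fit, 0 of 10 genes differed between males and females at an adjusted p under 0.05 (0.0425% of all genes) and 0 of 10 at an unadjusted p under 0.05 (3.81%), with male minus female log2 differences from -0.12 to 0.045. A genotype by sex interaction was found for 0 of 10 genes at an adjusted p under 0.05 (0% of all genes) and for 0 of 10 at an unadjusted p under 0.05 (4.72%). The interval of the interaction was widest for Nts, 1.00 on the log2 scale with bounds of -0.51 and 2.50. Avil-ChR2 replicate 4 was left out of both fits because its label says female and the study's sample list says male. That pup had 17.9 CPM of Uty and 22.5 CPM of Kdm5d, genes of the Y chromosome chosen after their values were seen, against at most 0.206 and 0.0820 CPM in females.

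The pups carry numbers in 2 runs, 26 to 33 and 35 to 42, each with 4 pups per genotype. Sex was not balanced between the runs in ChR2-flfl pups. By the study's sample list these were 3 females and 1 male in the first run and 1 female and 3 males in the second. The Avil-ChR2 pups were 2 females and 2 males in each run. What the runs stand for, such as litters or days, is not given in the labels. Their libraries also differed in how many entries had a value. Each pup of the second run had between 23379 and 23583 such entries. Those of the first run had between 23914 and 24262, apart from ChR2-flfl replicate 3. That library, with the fewest reads (30549126), had 23246. The cause of this difference in entries was not tested. With genotype in the fit, 0 of 10 genes passed an adjusted p under 0.05 between the runs, against 26 of all genes (0.123%). The count of all genes ranged from 7 to 123 over the fits without 1 of the pups (123 without ChR2-flfl replicate 4, 7 without Avil-ChR2 replicate 1). At an unadjusted p under 0.05 it was 8 of 10 genes, against 2649 of all genes (12.5%), and 6 to 8 of the 10 without any 1 of the pups (6 without Avil-ChR2 replicate 4). Of these 8 genes, 5 were lower in pups 35 to 42 (6.74% of all genes) and 3 were higher (5.76%). All 10 genes had the same sign of the difference in both genotypes.

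Nts differed most. Pups 26 to 33 had 0.494 to 1.99 CPM with a median of 1.25, and pups 35 to 42 had 0.288 to 0.681 CPM with a median of 0.566. All but 1 of the pups 26 to 33 lay above every pup of the later run. The log2 difference was -1.15 ± 0.24 (SE), with an adjusted p of 0.060 (limma) and an exact permutation p of 0.0016 over 4900 splits within genotypes (two-sided). It was -1.12 among ChR2-flfl and -1.19 among Avil-ChR2 pups. The adjusted p was under 0.05 without Avil-ChR2 replicate 2 (0.00448), whose 0.494 CPM was the low value of the earlier pups, without ChR2-flfl replicate 4 (0.0493) and with sex from the study's list beside genotype (0.0359, limma).

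Sst had 41.3 to 59.7 CPM (median 50.4) in pups 26 to 33 and 27.4 to 47.4 CPM (median 41.6) in pups 35 to 42, a log2 difference of -0.32 ± 0.094 with an adjusted p of 0.166. Of the later pups, 4 lay below every earlier pup. Cort differed by -0.40 ± 0.14 (adjusted p 0.240), from 1.81 ± 0.377 to 1.37 ± 0.261 CPM, and again 4 later pups lay below the earlier range. Npy differed by -0.23 ± 0.065 (adjusted p 0.157), from 27.8 ± 2.12 to 23.9 ± 2.90 CPM, with 5 later pups below the earlier range. Penk differed by -0.30 ± 0.12 (adjusted p 0.309), from 5.54 ± 1.33 to 4.44 ± 0.584 CPM.

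Vip, Crh and Adcyap1 had the opposite sign. Vip had 9.17 to 14.8 CPM (median 12.3) in pups 26 to 33 and 12.9 to 19.1 CPM (median 15.8) in pups 35 to 42, a log2 difference of 0.36 ± 0.094 with an adjusted p of 0.115. Of the later pups, 5 lay above every earlier pup. Adcyap1 differed by 0.15 ± 0.043 (adjusted p 0.151), from 27.6 ± 1.82 to 30.7 ± 1.68 CPM. Crh differed by 0.22 ± 0.10 (adjusted p 0.390), from 2.22 ± 0.232 to 2.60 ± 0.433 CPM. The differences of Cck (-0.068) and Pdyn (0.068) were smaller than the spread between pups.

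**Figure D3:**
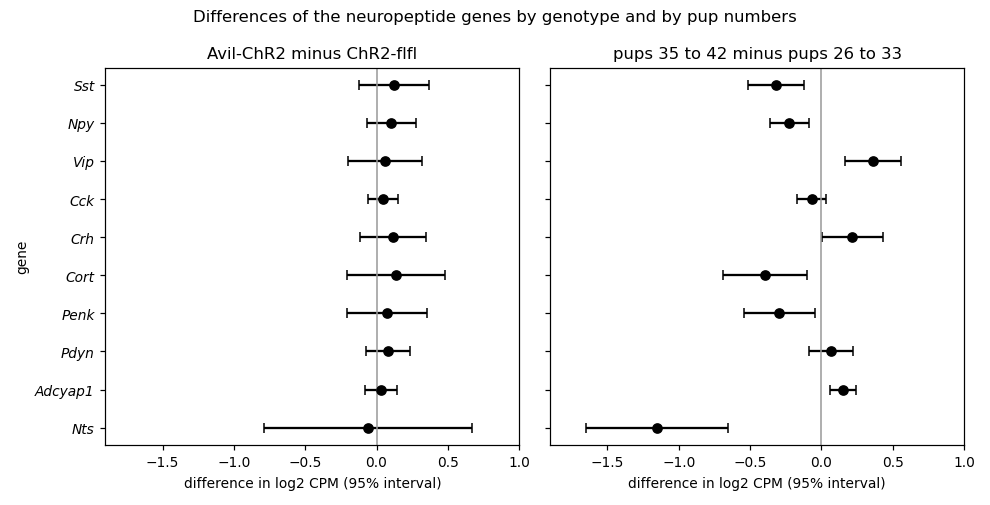
Log2 differences of the 10 genes with 95% intervals, on the left between genotypes and on the right between pups 35 to 42 and pups 26 to 33. All intervals on the left include 0, and on the right those of Nts, Cort, Sst, Penk and Npy lie below 0 and those of Vip, Crh and Adcyap1 above 0.

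The difference between runs went along with markers of the striatum. Of 12 markers listed, 10 passed the filter and 10 of 10 were lower in pups 35 to 42, against 10597 of all 21183 genes. Of these, 5 had an unadjusted p under 0.05 (6.74% of all genes) and 0 an adjusted p under 0.05. Their median log2 difference was -0.15 against -2.89e-05 for all genes. Their summed level was 235.8 to 272.9 CPM in pups 26 to 33 and 215.0 to 255.2 CPM in pups 35 to 42. The 5 markers were Drd1, Drd2, Adora2a, Ppp1r1b and Rarb, and Isl1 and Six3 did not pass the filter, all named after their values were seen. With the mean of these markers as a covariate, 0 of 10 neuropeptide genes had an unadjusted p under 0.05 between runs (4.02% of all genes). Nts then differed by -0.73 ± 0.38 and Sst by -0.045 ± 0.14, with SE of 0.24 and 0.094 without it. The marker mean itself was 3.34 ± 0.084 log2 CPM (SD) in pups 26 to 33 and 3.11 ± 0.10 in pups 35 to 42 (permutation p 0.0016). The covariate thus carries part of the run, and this fit cannot tell run and markers apart. Without this covariate, 2 of 10 genes had an unadjusted p under 0.05 in ChR2-flfl pups alone (5.13% of all genes). In Avil-ChR2 pups alone 7 of 10 did so (11.0%). These settings were added after the values were seen. Between genotypes the striatum markers were at 227.9 to 263.8 CPM in ChR2-flfl and 215.0 to 272.9 CPM in Avil-ChR2 pups. Markers of other lists also differed between runs at an unadjusted p under 0.05. Among the cortex markers Tbr1 (-0.23) and Bcl11b (-0.24) were lower and Emx2 (0.31) was higher in pups 35 to 42, the last with an adjusted p of 0.0462 (limma). Among markers of other cells Hba-a1 (-0.39) and Hbb-bs (-0.28) of red blood cells and Th (-0.55) were lower. These genes were named after their values were seen. The part of the dissection or of other cells in the difference between runs was not tested.

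The members also varied together from pup to pup. Correlations of log2 CPM were calculated over 16 pups after the mean of each genotype was subtracted, and this was chosen after the values were seen. Of 45 pairs, 16 had an adjusted p under 0.05 (permutation test with 100000 resamples, adjusted over 45 pairs). Of these, 12 were positive and 4 negative, and Vip was part of all the negative pairs. With the run subtracted as well and values permuted within runs and genotypes, 7 of the 16 pairs had an adjusted p under 0.05, 6 of them positive and 1 negative, and no other pair did. They were the 6 pairs among Sst, Npy, Cck and Cort and the pair of Vip and Cort. The r of the others moved toward 0, from 0.60 to 0.21 for Npy and Nts, from -0.69 to -0.36 for Vip and Nts, from 0.64 to 0.38 for Crh and Adcyap1 and from 0.59 to 0.34 for Vip and Crh.

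Sst and Cort had r = 0.93 and rho = 0.96, with an adjusted permutation p of 0.00045 for each. The r was 0.91 within pups 26 to 33, 0.93 within pups 35 to 42 and 0.91 with the run subtracted as well. Without the 2 pups farthest from the median of Cort it was 0.95. Among 15136 genes whose mean log2 CPM was 0 or more, Sst was the gene with the highest r with Cort, and Cort was 7th with Sst. An absolute r of at least 0.8 with Sst was reached by 2.91% of the genes.

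Sst and Npy had r = 0.92 and rho = 0.87 (adjusted permutation p 0.00045 and 0.0011), with 0.83 and 0.88 within the runs. Without the 2 pups farthest from the median of Npy, r was 0.84. Npy with Cort had r = 0.81 and rho = 0.82. Cck followed the same genes, with r = 0.78 and rho = 0.69 for Sst and r = 0.79 and rho = 0.69 for Npy. Its r with Npy dropped to 0.52 without the 2 pups farthest from the median of Cck.

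Vip ran the other way. Its r with Cort was -0.83 (rho -0.84, adjusted permutation p 0.00090 and 0.0024) and its r with Sst was -0.79 (rho -0.78, adjusted permutation p 0.0020 and 0.0039). For Sst the relation was -0.36 within pups 26 to 33, -0.96 within pups 35 to 42 and -0.65 with the run subtracted as well (adjusted permutation p 0.118). For Cort it was -0.58 and -0.90 within the runs and -0.70 with the run subtracted (adjusted permutation p 0.0285). Vip with Npy had r = -0.67, with 0.021 and -0.82 within the runs, so that it did not hold in the first run. ChR2-flfl replicate 7 had the lowest Sst, Npy and Cort of all pups (27.4, 18.1 and 1.02 CPM) and the highest Vip (19.1 CPM). Without each pup in turn, the r of Sst with Vip lay between -0.86 and -0.72.

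Vip was positively related to Adcyap1 (r = 0.75, rho = 0.78, adjusted permutation p 0.0052 and 0.0039), with 0.64 and 0.32 within the runs and 0.50 with the run subtracted (adjusted permutation p 0.337). Nts was related to Cort (r = 0.74, rho = 0.75) and Sst (r = 0.71, rho = 0.80), but with the run subtracted as well the r was 0.56 and 0.45 (adjusted permutation p 0.300 and 0.302). Crh had r = 0.64 with Adcyap1 and r = 0.59 with Vip, and both failed by rank (adjusted permutation p for rho 0.120 and 0.108). Pdyn had no relation with an adjusted p under 0.05, with r from -0.044 to 0.43, and neither had Penk, whose largest r was 0.54 with Nts.

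**Figure D4:**
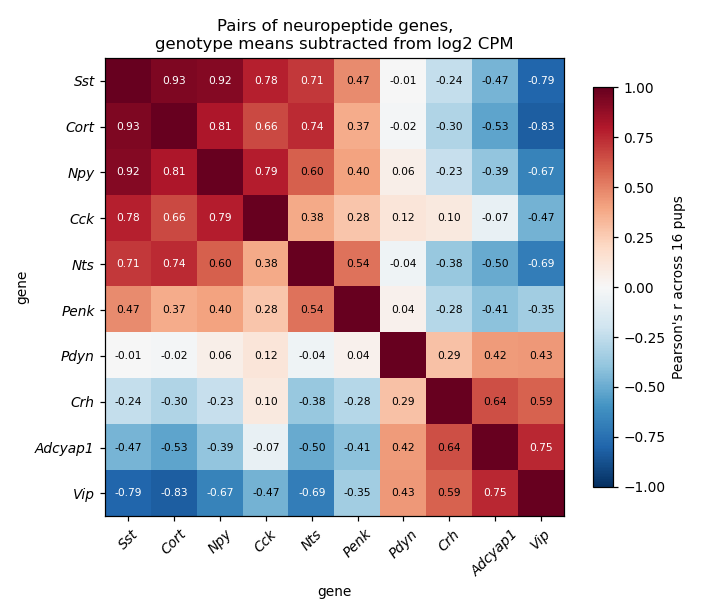
Pearson's r of log2 CPM for each pair of genes across 16 pups, with the genotype means subtracted, on a scale from -1 (blue) to 1 (red). Sst, Cort, Npy and Cck form a block of positive values from 0.66 to 0.93, and the row of Vip is negative against them, from -0.47 to -0.83.

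Relations with the mean of marker lists were calculated in the same way for 5 lists, 50 relations in all. An adjusted p under 0.05 was found for 6, all with the striatum list. They were positive for Sst (r = 0.75, rho = 0.80), Nts (0.75 and 0.70), Npy (0.72 and 0.68) and Cort (0.72 and 0.71) and negative for Adcyap1 (-0.67 and -0.70) and Vip (-0.66 and -0.68), with adjusted permutation p from 0.0185 to 0.0428 for r. Within the runs they were smaller, with 0.65 and 0.48 for Sst, 0.53 and 0.18 for Nts, 0.34 and 0.50 for Npy and 0.57 and 0.45 for Cort. For Vip (0.014 and -0.57) and Adcyap1 (-0.0039 and -0.64) they were near 0 in pups 26 to 33. With the run subtracted as well, 0 of 50 relations had an adjusted and 1 an unadjusted permutation p under 0.05, the latter for Npy and the striatum list (r = 0.65, permutation p 0.0295). With the median of the markers in place of their mean, 0 of 50 relations had an adjusted p under 0.05, but r was similar for 5 of the 6, with 0.74 for Npy (adjusted permutation p 0.0510) and 0.66 for Sst, 0.65 for Cort, -0.69 for Adcyap1 and -0.66 for Vip (adjusted permutation p 0.0539 for each). For Nts it was 0.55 (adjusted permutation p 0.154). Penk (r = 0.54) and Pdyn (r = -0.0091), which the striatum also expresses, did not pass. For the interneuron markers r lay between -0.23 and 0.63, for hippocampus between -0.25 and 0.22, for thalamus between -0.21 and 0.45 and for hypothalamus between -0.41 and 0.27.

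**Figure D5:**
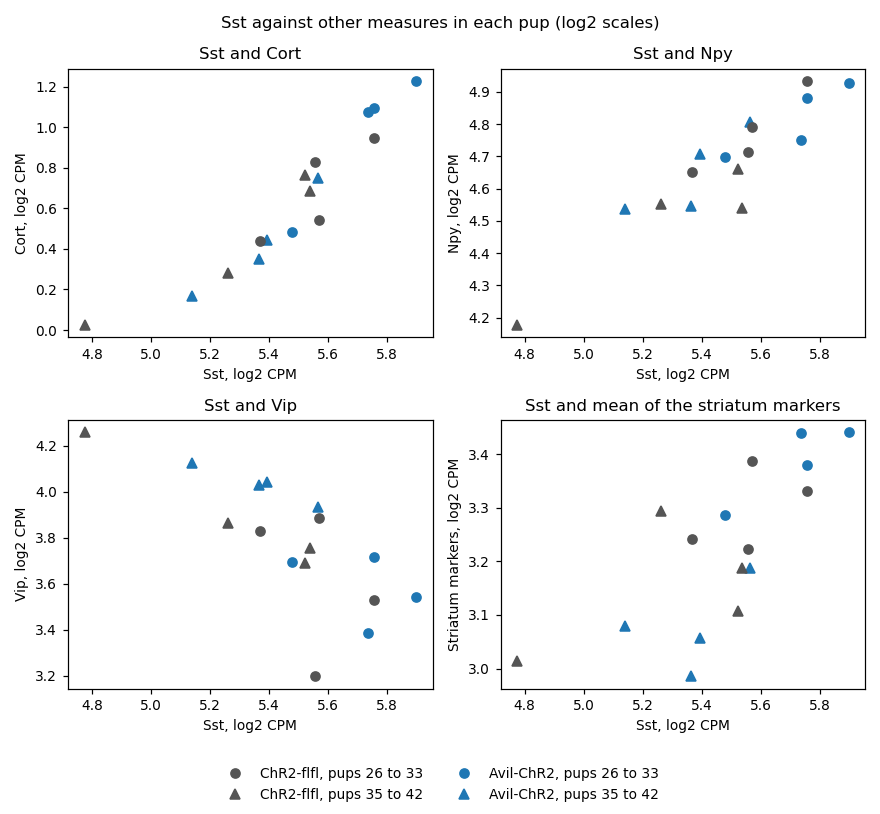
Log2 CPM of Cort, Npy, Vip and the mean of 10 striatum markers against log2 CPM of Sst in each pup, with grey for ChR2-flfl, blue for Avil-ChR2, circles for pups 26 to 33 and triangles for pups 35 to 42. Cort and Npy rise with Sst (r = 0.93 and 0.92) and Vip falls with it (r = -0.79), and in the panel of the striatum markers the circles lie mostly above the triangles (r = 0.75). Each r was calculated with genotype means subtracted, whereas the plotted values are not centred. For the striatum panel r without this subtraction is 0.73.

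Genes of the same pathways were described beside the peptides. Of 22 receptors and binding proteins, 20 were tested between genotypes, with 16 log2 differences above and 4 below 0 and a median of 0.026. Of all 21183 genes, 10885 had a difference above 0. In this list 0 genes had an adjusted and 1 an unadjusted p under 0.05, against 5.41% of all genes unadjusted. The single gene was Crhbp, whose protein binds and neutralizes corticotropin-releasing hormone, with 8.03 ± 0.937 CPM in ChR2-flfl and 9.08 ± 1.06 CPM in Avil-ChR2 pups (log2 difference 0.18 ± 0.079, unadjusted p 0.0352, limma). The receptor genes Crhr1 and Crhr2 had log2 differences of 0.014 ± 0.063 and 0.20 ± 0.16. The somatostatin receptor genes Sstr1, Sstr3 and Sstr4 had log2 differences of 0.052, 0.054 and 0.027, Npy1r had 0.014, and Adcyap1r1, the receptor of PACAP, had 0.013. Per kb of transcript, Sort1 (47.1 CPM per kb), Oprm1 (46.8), Sstr1 (45.6), Adcyap1r1 (33.2) and Crhr1 (20.3) were the highest of the list. Their order depended on the length. With the median transcript length Adcyap1r1 had 132 CPM per kb, Oprm1 78.7, Sstr1 48.7, Sort1 47.3 and Crhr1 20.3. The entries span whole genes with their introns, chr10:6758593-7038209 for Oprm1 against a longest transcript of 2420 bases. Whether reads in introns were counted is not stated, and such reads would raise the level per kb of long genes. Between the runs 4 of the 20 had an unadjusted p under 0.05, lower for Cckbr (-0.33), Oprk1 (-0.32) and the neurotensin receptor Ntsr1 (-0.14) and higher for Sort1 (0.083). Sstr2 had no value in any pup, and its entry lies wholly inside that of Slc39a11 on the other strand, so that its level is not known from this table. Cck, Crh and Adcyap1 overlap in part with entries on the other strand, whose mean levels were 2.82, 0.645 and 0.0866 CPM, and whether the counting used the strand is not stated.

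The list of peptide processing enzymes and proteins of dense-core vesicles had 15 genes, and all 15 had a higher mean log2 value in Avil-ChR2 pups, by 0.0061 to 0.19 with a median of 0.043. Of all 21183 genes, 10885 were higher. In the list none had an adjusted and 2 had an unadjusted p under 0.05 (limma), against 5.41% of all genes unadjusted. These were Cpe, which trims basic residues from peptides (log2 difference 0.070 ± 0.033, unadjusted p 0.0493), and Scg3, a granin that sorts cargo into vesicles (0.065 ± 0.030, unadjusted p 0.0428). The convertase genes Pcsk1 and Pcsk2 had log2 differences of 0.043 and 0.025. Between runs 7 of 15 had an unadjusted p under 0.05, against 12.5% of all genes. The largest difference was that of Pcsk1n, which encodes a convertase inhibitor (-0.66 ± 0.21).

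Of 25 other neuropeptide precursors, 19 were tested between genotypes, with 8 log2 differences above and 11 below 0 and a median of -0.027. In this list 0 genes had an adjusted and 2 an unadjusted p under 0.05, against 5.41% of all genes unadjusted. These 2 were the tachykinin genes. Tac2, the precursor gene of neurokinin B, had 3.06 ± 0.502 CPM in ChR2-flfl and 4.18 ± 0.672 CPM in Avil-ChR2 pups (log2 difference 0.45 ± 0.11, unadjusted p 6.52e-04, limma). Tac2 (chr10:127724478-127731768) lies on the same chromosome as Avil (chr10:127000075-127020994), whose promoter drives Cre. The part of this position in the difference of Tac2 was not tested. Tac1, the precursor gene of substance P, had 4.17 ± 0.532 and 5.08 ± 0.912 CPM (0.28 ± 0.11, unadjusted p 0.0186). Between runs 4 of 19 had an unadjusted p under 0.05, against 12.5% of all genes. All 4 were lower in pups 35 to 42 (6.74% of all genes), namely Trh, Nppc, Calca and Tac1. Grp had no value in any pup and lies wholly inside the entry of Gm30094 on the other strand.

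Interneuron markers served to describe the cells that carry most of the 10 peptides. Of 20 genes, 8 had a positive and 12 a negative log2 difference between genotypes, with a median of -0.018. In this list 0 genes had an adjusted and 2 an unadjusted p under 0.05, against 5.41% of all genes unadjusted. These were Erbb4, a receptor on interneurons, with 98.7 ± 9.02 and 87.0 ± 2.49 CPM (-0.18 ± 0.044, unadjusted p 6.56e-04, limma), and Reln, which encodes the matrix protein reelin (-0.14 ± 0.066, unadjusted p 0.0407). The GABA synthesis genes Gad1 and Gad2 had log2 differences of 0.034 and 0.045. Between runs 6 of 20 had an unadjusted p under 0.05, against 12.5% of all genes. Chodl, a marker of a subset of Sst and Npy interneurons, was lower in pups 35 to 42 (-0.60 ± 0.13, adjusted p 0.0623, limma) and so was Slc32a1, the vesicular GABA transporter (-0.25 ± 0.083). Prox1 (0.24 ± 0.062), Lamp5 (0.24 ± 0.076), Ndnf (0.20 ± 0.061) and Reln (0.14 ± 0.059) of the same list were higher. Lhx6 and Sox6, transcription factors of the lineage that gives rise to Sst interneurons, had -0.065 and -0.0031, and Gad1 and Gad2 had 0.0027 and 0.0016.

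Markers of the cortex itself were at a summed 1682 to 1833 CPM over 12 genes, whereas the 10 markers of the hypothalamus summed to 3.07 to 3.92 CPM and the 6 of the choroid plexus to 1.45 to 3.27 CPM, with 4 of 10 and 3 of 6 passing the filter. Between genotypes 0 of 10 striatum, 0 of 8 hippocampus, 0 of 6 thalamus and 0 of 4 hypothalamus markers had an adjusted or unadjusted p under 0.05 (limma). Of all genes, 5.41% had an unadjusted p under it. Slc17a7 of the cortex list, the vesicular glutamate transporter (log2 difference 0.11 ± 0.049, unadjusted p 0.0304), and Ttr of the choroid plexus list (1.33 ± 0.63, unadjusted p 0.0491, 0.118 and 0.319 CPM) were the genes of those lists with an unadjusted p under 0.05, and none had an adjusted p under it. Among 15 tested markers of glia, vessels, blood and other cells, Avil alone passed, which is the check of the genotype. The part of these tissues in the values of the 10 genes was not tested.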

How the data were processed

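RNAseq was done on cortices of 16 pups, 8 per genotype, and groups, replicate numbers and pup numbers were taken from the sample labels. The libraries were stranded mRNA libraries. The authors used SeqMan NGen for the alignment to GRCm38 (mm10), keeping reads from 50 bp, and ArrayStar for the counts of reads, and edgeR gave the TMM factors. The deposited values are CPM after this scaling, not logged, not pooled, and empty where a gene had no reads. All columns were used.

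CPM were log2 transformed, and missing values or values below -5 were set to -5 (4432 of 338928 values of the genes tested). Genes with at least 12 of 16 values above -5 were kept. Comparisons were fitted on all 21183 genes with limma 3.58.1 in R 4.3.3 (trended eBayes, Benjamini-Hochberg adjustment over all genes), for genotype alone, for run or sex beside genotype, and for a genotype by sex interaction. The limma fits were tested on simulated data. Reads were worked out from the CPM steps, and 100% of values were whole to within 0.05. Depth sets the counting error only, so that the spread between pups was used as the error. Litters are not given per pup, and p-values measure the spread between these pups. Permutation tests and correlations were two-sided (scipy 1.17.1). Transcript lengths and coding ends are from GENCODE, promoters from RefSeq.

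The 10 genes and all lists were chosen with earlier results of these data known. The rule named the 10 genes in full, genes of the lists of receptors, processing proteins, other precursors and interneurons, the 3 genes of highest mean level in a regional list, and Avil. Some marker genes are not reported here. Where replicate numbers are shared by the genotypes they are serial numbers of different animals. The same-number correlation of residuals ran from -0.34 to 0.39, so that the samples were not paired.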

Additional observations from a re-analysis of the deposited data

Results flagged for a closer look

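In the 10 genes and 2 genotypes, the highest and lowest of 8 pups were compared with the rest by their gap to the nearest pup as a share of the range, read against Dixon's critical value at the 95% level. Penk was set apart in both genotypes. In ChR2-flfl replicate 3 it reached 7.144 CPM against 4.824 CPM in the next pup (0.72 of the range), and in Avil-ChR2 replicate 4 it reached 8.011 CPM against 5.516 CPM in the next pup (0.57 of the range). Chance sets apart about 1 in 20 groups, and 20 groups were tested. ChR2-flfl replicate 3 was the library with the fewest reads (30549126) and had 221 reads of Penk, and Avil-ChR2 replicate 4, with 383 reads, was the pup whose sex differs between the sources. Both belong to pups 26 to 33. The part of depth, sex or dissection in these values was not tested.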

How the results depend on the processing

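For genotype, 0 of 10 genes had an adjusted or unadjusted p under 0.05 in every setting run, including each pup left out. Among all genes, 1 in place of 2 passed an adjusted p under 0.05 with median centring, in pups 26 to 33 only and in pups 35 to 42 only, and with an unadjusted p it was 672 in place of 1145 in pups 26 to 33 only. With the replicate number as a block, 1 gene passed an adjusted and 1091 an unadjusted p under 0.05, and no call of the 10 genes changed. With each pup left out, 1 to 2 genes passed an adjusted and 929 to 1581 an unadjusted p.

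Of 139 genotype differences of single genes under other settings, 5 changed sign, namely Adcyap1 (-0.045) and Vip (-0.026) in pups 26 to 33, Cort (-0.011) in pups 35 to 42 and Nts with log2(value + 1) (0.0044) and array weights (0.014). Of 160 with a pup left out, 9 did so. They were 1 each of Adcyap1, Penk and Vip and 6 of Nts. All these values were smaller than the spread between pups. Nts could not be fitted where genes of a mean log2 CPM under 0 were left out. Over the fits with a pup left out, the difference ranged from -0.0017 to 0.057 for Adcyap1, from -0.26 to 0.14 for Nts, from -0.023 to 0.16 for Penk and from -0.022 to 0.13 for Vip.

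For sex, the labels with all 16 pups turned Cort (-0.016) and Nts (-0.062), and the study's list with all 16 pups turned Penk (0.065). For the interaction, the labels turned Adcyap1 (0.016), Cort (-0.078) and Vip (0.062). No member passed a threshold in these fits.

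For the runs, the count of all genes at an adjusted p fell to 0 with the striatum markers as a covariate, in ChR2-flfl only and in Avil-ChR2 only, and at an unadjusted p it was 851 with the covariate and 1086 in ChR2-flfl only. Of the 10 genes, 1 passed an adjusted p with sex as a covariate, and 0 had an unadjusted p under 0.05 with the striatum covariate and 2 in ChR2-flfl only. Cck changed sign with that covariate (0.0030). With it the log2 differences between runs were -0.045 for Sst, -0.054 for Cort and -0.074 for Npy, and the cause was not tested. The striatum marker mean itself differed between the runs, so that the fit with this covariate cannot tell run and markers apart. A single genotype leaves 8 pups. With each pup left out, 7 to 123 genes and 0 to 1 of the 10 genes passed an adjusted p, and 2152 to 3163 genes and 6 to 8 of the 10 genes an unadjusted p. Median centring and quantile normalization left the counts of higher and lower genes between genotypes the same for the 10 genes, receptors, processing proteins, other precursors and interneuron markers, and the 10 striatum markers stayed lower in pups 35 to 42 with both. The number of relations with marker lists that had an adjusted p under 0.05 was 6, and it was 0 with the median of the markers, where the adjusted permutation p of the 6 lay from 0.0510 to 0.154, and 0 with the run subtracted. For pairs of genes it was 16, and 7 with the run subtracted. The cause was not tested.

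The count tests planned with edgeR and DESeq2 were not run, because the deposited values, written with decimal commas, were not recorded as counts or as recovered reads. The settings of the run comparison other than sex as a covariate, the relations between pairs of genes and the other scalings of lists were added after seeing the data. The counts of Nts (14 to 97 reads) and Cort (45 to 112) limit what can be detected for them.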
